A study of Mus musculus with 16 samples.

Results

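The comparison described here was that of APC conditional knockouts (APC cKOs) with controls, in 8 of the 16 prefrontal cortex samples of the study. Members were chosen by sample title: the 4 APC cKO samples (replicates 1, 2, 4 and 5) and the 4 control samples (replicates 1 to 4), each a separate RNA-seq sample. APC cKOs carried APC fl/fl, with exons 11 and 12 of Apc flanked by loxP sites, and CamKIIα-Cre-93, a Cre driver of forebrain excitatory neurons that becomes active in the first postnatal weeks. Controls were littermates without Cre, pooled over every mouse line of the study, so that a given control need not carry the floxed Apc allele; the labels do not say from which line each came. The other 8 samples, used to share the estimate of the spread and for direct tests, were 4 β-cat cOEs (ctnnb1 fl(ex3)/+ with the same Cre, giving a β-catenin that is not degraded) and 4 APC/β-cat cKOs (APC fl/fl and ctnnb1 fl/fl with the same Cre). Mice of both sexes were 2 to 3 months old. The tissue was whole prefrontal cortex, so other cells than those with Cre were measured too, and fewer cells of a type cannot be told apart from less RNA per cell.

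The adenomatous polyposis coli protein (APC) is a scaffold of the destruction complex, in which Axin holds β-catenin for phosphorylation by CK1 and GSK3 and for ubiquitination by β-TrCP. Without a working complex β-catenin accumulates, enters the nucleus and acts with TCF/LEF factors on Wnt target genes such as Axin2, itself a negative feedback component. β-Catenin also binds cadherins at synapses, and APC binds microtubule ends and postsynaptic partners.

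Values are FPKM, fragments scaled to transcript length and to sequencing depth, as recovered from the deposited log2 values, and were tested by limma on log2(FPKM + 0.1) in the 13978 genes that averaged 0.5 FPKM or more. Sequencing depth is unknown from such values, and between 5726 and 6063 genes were at 0 in APC cKOs and between 5883 and 6451 in controls. By Xist and Y-linked genes, APC cKO replicate 1 and control replicate 1 were female and the other 6 samples male. Markers of cortical excitatory neurons were present in every sample, with Slc17a7, the vesicular glutamate transporter, at 395 to 521 FPKM in APC cKOs and 420.4 to 496 FPKM in controls. Markers of the striatum, which adjoins the dissected area, ranged between samples by more than the groups differed, as described with those markers below. On the first principal component of the tested genes (23.8% of the variance over these 8 samples), the lowest APC cKO, replicate 2, lay at -6.03, below control replicate 1 at 4.81, so the groups overlapped. Each difference below is a difference in log2(FPKM + 0.1), APC cKO minus control unless another group is named, and is smaller than the true log2 ratio for genes at low levels.

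Against controls, 6 of the 13978 genes (0.0429%) changed in APC cKOs at a Benjamini-Hochberg adjusted p under 0.05. Apc, Casp2, Gm6277 and Gm10635 fell, and Fam131b and Zyx rose. At an unadjusted p under 0.05, 674 genes (4.82%) were higher and 726 (5.19%) lower, which is the background for every gene group below. All 4 APC cKOs lay above all 4 controls in 348 genes (2.49%) and below them in 417 (2.98%). The median difference over all genes was -0.004. The number of changed genes depended on single samples: it was 43 without control replicate 1, 13 without APC cKO replicate 2 and 3 without control replicate 3.

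The targeted gene was read first. Apc was at 17.1, 10.8, 7.85 and 10.9 FPKM in APC cKO replicates 1, 2, 4 and 5, in that order here and below, and at 43.2, 40.8, 41.6 and 50.1 FPKM in control replicates 1 to 4. All APC cKOs lay below all controls, and the highest of them was replicate 1. Apc fell by 1.95 on the log2 scale (SE 0.20, adjusted p = 0.00024). In GENCODE vM21 (GRCm38, the mm10 assembly) the gene spans chr18:34220924-34322552 on the plus strand. The value is over the whole gene and does not show which exons the remaining transcripts hold.

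Ctnnb1, which encodes β-catenin, was at 182, 157, 166 and 176 FPKM in APC cKOs and 166, 161, 155 and 157 FPKM in controls. The groups overlapped, and the difference was 0.09 (SE 0.05, adjusted p = 0.532). Of 17 destruction complex genes tested, Apc alone passed the adjusted threshold. At an unadjusted p under 0.05, Axin2 was higher and Apc and Btrc lower, Btrc (β-TrCP) with a difference of -0.16 and values of 23.4, 24.5, 22.7 and 22.9 FPKM in APC cKOs against 24.4, 26, 27.8 and 26.7 FPKM in controls, where the groups overlapped. The median difference of the list was -0.06. Of 18 catenin and classical cadherin genes, 0 passed the adjusted threshold by limma and 1 was lower at an unadjusted p under 0.05, Ctnna2 (αN-catenin, which ties cadherins to actin), at 49.5, 52, 50.7 and 52.6 FPKM against 56.4, 57.8, 55.8 and 55.5 FPKM, with a difference of -0.14; the median of the list was 0.02.

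**Figure D1:**
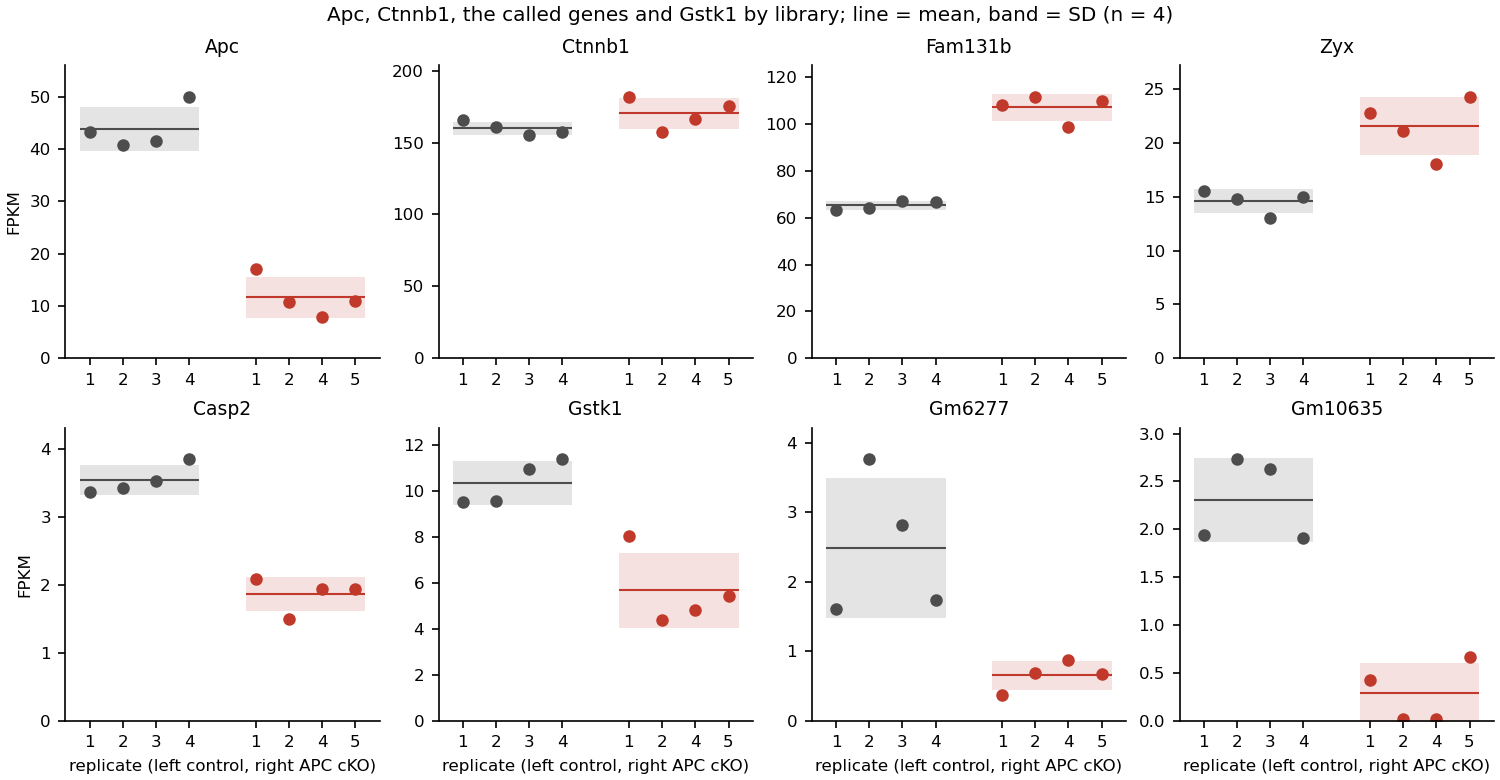
FPKM by sample (grey, control replicates 1 to 4; red, APC cKO replicates 1, 2, 4 and 5) for Apc, Ctnnb1, the other changed genes and Gstk1; lines are means and bands the SD over 4 samples. Every panel but that of Ctnnb1 shows 2 groups that do not overlap, with Apc at 7.85 to 17.1 FPKM in APC cKOs and 40.8 to 50.1 FPKM in controls.

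Both genes that rose, and Casp2 among those that fell, lie within 114.3 kb of chromosome 6. Fam131b (chr6:42315312-42324643, minus strand) was at 108, 112, 98.7 and 109.9 FPKM in APC cKOs and 63.2, 64.1, 67.2 and 66.7 FPKM in controls. No samples overlapped, and it rose by 0.71 (SE 0.05, adjusted p = 8.28e-06). Zyx (chr6:42349630-42360213, plus strand), which encodes the focal adhesion protein zyxin, was at 22.8, 21.1, 18 and 24.3 FPKM in APC cKOs and 15.5, 14.8, 13 and 15 FPKM in controls. Its lowest APC cKO, replicate 4, was above its highest control, and it rose by 0.55 (SE 0.08, adjusted p = 0.0124). The call was lost in 6 of 30 alternatives, among them leaving out APC cKO replicate 1, APC cKO replicate 5, control replicate 2 or control replicate 3, and its adjusted p reached 0.276 when the fit held only these 8 samples. Casp2 (chr6:42264985-42282508, plus strand), which encodes the protease caspase-2, was at 2.09, 1.5, 1.94 and 1.93 FPKM in APC cKOs and 3.36, 3.42, 3.52 and 3.84 FPKM in controls. It fell, with a difference of -0.90 (SE 0.12, adjusted p = 0.00799). Gstk1 (chr6:42245935-42250447, plus strand), a glutathione transferase, is the next tested gene in this stretch and was at 8.04, 4.4, 4.84 and 5.44 FPKM in APC cKOs against 9.54, 9.57, 11 and 11.4 FPKM in controls. Its groups did not overlap, but it did not pass the adjusted threshold (difference -0.89, SE 0.17, adjusted p = 0.11). Within this stretch Tmem139, Clcn1 and Epha1 were below the filter, and Clcn1, a muscle chloride channel, was at 0.259 to 0.351 FPKM in APC cKOs and 0.246 to 0.382 FPKM in controls.

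The same chromosome 6 genes were measured in the other lines with Cre. For Fam131b the β-cat cOEs were at 111 ± 4.98 FPKM and the APC/β-cat cKOs at 110.0 ± 6.86 FPKM, beside 107 ± 5.8 FPKM in APC cKOs and 65.3 ± 1.92 FPKM in controls (mean ± SD of 4 samples). Casp2 was at 1.88 ± 0.253 FPKM and 1.67 ± 0.15 FPKM in these lines, beside 1.86 ± 0.254 FPKM in APC cKOs (SD, n = 4 each). The direct difference between APC cKOs and β-cat cOEs was -0.05 (SE 0.05, adjusted p = 0.902) for Fam131b, -0.01 (SE 0.12, adjusted p = 0.996) for Casp2 and 0.18 (SE 0.08, adjusted p = 0.64) for Zyx. Presence of the Cre transgene and deletion of Apc cannot be told apart in the comparison with Cre-negative controls.

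Gm6277, an antisense transcript gene at chr18:11820671-11840869 (minus strand), was at 0.373, 0.691, 0.88 and 0.674 FPKM in APC cKOs and 1.61, 3.76, 2.82 and 1.75 FPKM in controls. It fell, with a difference of -1.74 (SE 0.25, adjusted p = 0.0101), and no samples overlapped. It lies 22.4 Mb from Apc. APC/β-cat cKOs, which also carry the floxed Apc allele, were at 0.807 ± 0.077 FPKM, and β-cat cOEs at 2.46 ± 0.207 FPKM (mean ± SD of 4 samples). Because use of strand in the counting is not given in the sources used here, reads from this gene and from a partner on the opposite strand cannot be told apart. Gm10635, a long intergenic noncoding RNA gene at chr9:79444037-79519302 (minus strand), was at 0.431, 0.0159, 0.0242 and 0.671 FPKM in APC cKOs and 1.95, 2.73, 2.64 and 1.91 FPKM in controls. It fell, with a difference of -3.10 (SE 0.49, adjusted p = 0.0277). With APC cKO replicates 2 and 4 close to 0, its size depends on the added constant (-1.39 with 1 in place of 0.1), and 11 of 29 alternative analyses ended its call.

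The genes next in order of p, none past the adjusted threshold, were chosen among those whose groups did not overlap. Bmpr1b, a type I receptor for bone morphogenetic proteins, was at 7.33, 7.54, 8.32 and 8.43 FPKM in APC cKOs and 5.82, 5.82, 5.95 and 4.98 FPKM in controls, with a difference of 0.48 (SE 0.09, adjusted p = 0.0913). Mns1, a structural protein of cilia and flagella, was at 2.45, 2.81, 5.52 and 1.99 FPKM against 1.17, 0.614, 0.904 and 1.05 FPKM (difference 1.60, SE 0.33, adjusted p = 0.163). For Mns1 APC cKO replicate 4 was the highest sample. Cst3, the secreted protease inhibitor cystatin C, was at 2663 to 3226 FPKM in APC cKOs and 1751 to 2435 FPKM in controls (difference 0.54, SE 0.12, adjusted p = 0.204). Pygl, a glycogen phosphorylase, had a difference of 0.60, and Glra2, the glycine receptor α2 subunit, one of 0.63, with adjusted p of 0.158 and 0.209. The remaining genes on this side were 2610524H06Rik (0.33), Wbp11, a splicing factor (0.22), Zfp189, a zinc finger protein (0.48), Pnmal2 (0.26) and Gtl3 (0.24).

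On the lower side, Nr1d2, the nuclear receptor REV-ERBβ of the circadian clock, was at 34.1, 35.1, 35.4 and 34.4 FPKM in APC cKOs and 43.9, 44.2, 41.5 and 47.8 FPKM in controls (difference -0.35, SE 0.07, adjusted p = 0.11). The 4 APC cKOs lay within a narrow range below every control. Bhlhe41, a clock-linked transcriptional repressor, was at 6.07, 7.31, 7.47 and 7.18 FPKM against 9.2, 10.3, 9.33 and 8.29 FPKM (difference -0.40, SE 0.08, adjusted p = 0.13). Sgpp2, a sphingosine-1-phosphate phosphatase, was at 5.36, 5.41, 5.23 and 3.57 FPKM against 8.41, 7.48, 7.29 and 9.02 FPKM (difference -0.72, SE 0.14, adjusted p = 0.11). All samples of these genes separated by group, with APC cKO replicate 5 lowest for Sgpp2. Il33, an alarmin cytokine, had a difference of -0.87 (SE 0.19, adjusted p = 0.204), Slfn2 of -0.84 (SE 0.16, adjusted p = 0.11) and 6330527O06Rik of -0.44 (SE 0.10, adjusted p = 0.204).

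**Figure D2:**
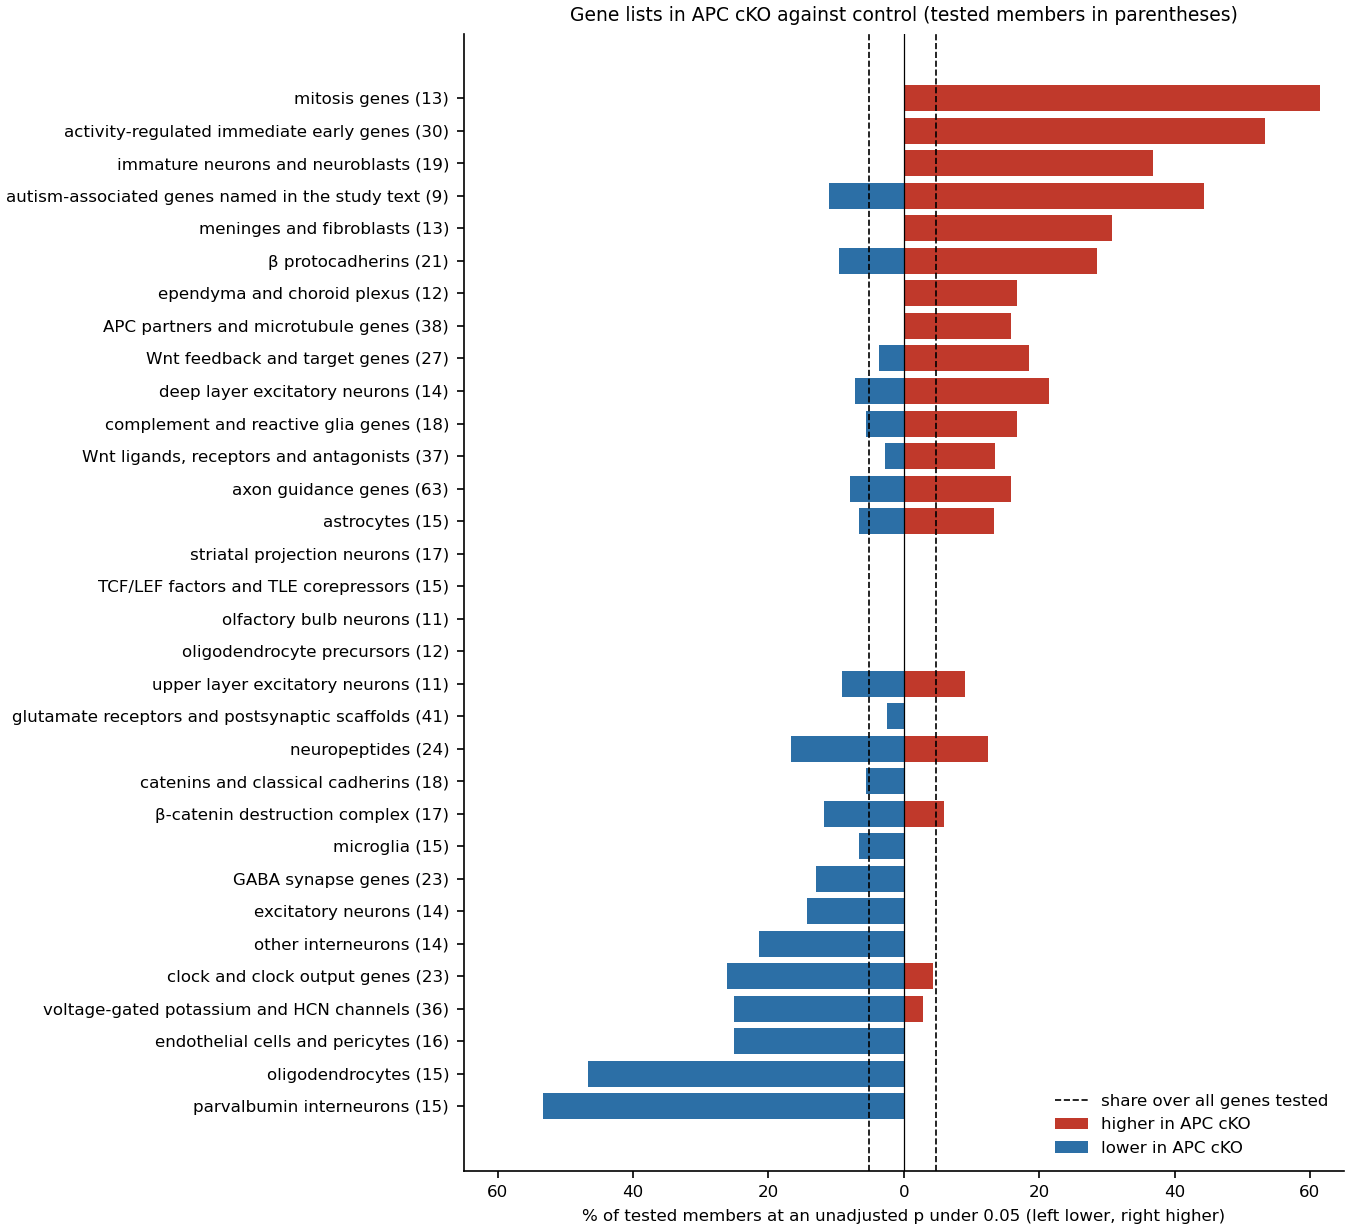
Share of tested members of each gene list (number tested in parentheses) that were higher (right, red) or lower (left, blue) in APC cKOs at an unadjusted p under 0.05; dashed lines mark 4.82% and 5.19%, the shares over all genes. Immediate early genes (16 of 30 higher) and parvalbumin interneuron markers (8 of 15 lower) lie far outside these lines, while striatal markers have no bar on either side.

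Canonical Wnt feedback and target genes were next examined. Of 27 tested, 5 were higher and 1 lower at an unadjusted p under 0.05, 0 passed the adjusted threshold by limma, and the median difference was 0.17 beside -0.004 over all genes. Wif1, a secreted inhibitor that binds Wnts, was at 7.12, 1.14, 3.5 and 3.34 FPKM in APC cKOs and 0.459, 0.892, 1.08 and 1.1 FPKM in controls (difference 1.78, SE 0.49, adjusted p = 0.31). Axin2 was at 8.4, 6.03, 7.65 and 6.61 FPKM against 6.26, 4.75, 5.81 and 6.01 FPKM (difference 0.32, SE 0.11, adjusted p = 0.371). Wif1 separated the groups, with APC cKO replicate 2 just above the highest control, whereas Axin2 overlapped through APC cKO replicate 2. Notum, a secreted enzyme that inactivates Wnts, was at 5.31, 1.11, 2.88 and 1.98 FPKM against 0.926, 1.21, 1.22 and 1.24 FPKM (difference 1.02, SE 0.35, adjusted p = 0.358), with replicate 2 within the control range. The cyclins Ccnd1 and Ccnd2, which drive entry into the cell cycle, had differences of 0.36 and 0.24, and the lower gene was Ephb2, an ephrin receptor (-0.28). The count of higher genes was 2 without APC cKO replicate 1, 3 without APC cKO replicate 5, control replicate 2 or control replicate 3, and 5 with all samples. The median was 0.06 without APC cKO replicate 1 and 0.07 without control replicate 2. For TCF/LEF factors and TLE corepressors, 0 of 15 passed either threshold by limma, and the median was 0.07.

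Among 37 Wnt ligands, receptors and antagonists, 5 were higher and 1 lower at an unadjusted p under 0.05, with 0 past the adjusted threshold by limma and a median of 0.01. Sfrp1, a secreted frizzled-like protein that binds Wnts, was at 12.2, 9.38, 13.9 and 10.9 FPKM in APC cKOs and 9.21, 6.66, 5.15 and 6.16 FPKM in controls (difference 0.78, SE 0.18, adjusted p = 0.248). All APC cKOs lay above all controls, the gap being narrow between APC cKO replicate 2 and control replicate 1. Kremen1, a receptor for Dickkopf proteins, was at 5.84, 4.96, 5.49 and 4.77 FPKM against 4.76, 4.58, 4.14 and 3.71 FPKM (difference 0.29, SE 0.09, adjusted p = 0.332). The Wnt receptors Fzd6 and Fzd10 had differences of 0.60 and 0.80, and Fzd7 was also in this group. Dkk3, a Dickkopf family member, was at 121, 181, 143 and 151 FPKM against 179, 179.7, 176 and 170.5 FPKM (difference -0.26, SE 0.11, adjusted p = 0.44), with APC cKO replicate 2 the highest of the 8 samples. The count of higher genes was 3 without control replicate 3.

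APC binds microtubules, and of 38 tested genes for its partners and for tubulins and other microtubule proteins, 6 were higher and 0 lower at an unadjusted p under 0.05, with 0 past the adjusted threshold by limma. The median was 0.01. The list does not hold every tubulin gene. Tuba1c, an α-tubulin gene described below with control replicate 1, is not in it and was lower, with a difference of -2.16. The count was 3 without control replicate 4 and 4 to 6 without any other single APC cKO or control. Tuba1a, the main α-tubulin of neurons, was at 643, 563, 559 and 581 FPKM in APC cKOs and 502, 504, 504 and 528 FPKM in controls (difference 0.20, SE 0.07, adjusted p = 0.329). Tubb5, a β-tubulin, was at 265, 259, 252 and 279.9 FPKM against 249, 243, 238 and 218 FPKM (difference 0.16, SE 0.05, adjusted p = 0.31). Both separated the groups by a small margin. Dpysl3, which binds tubulin and acts in growth cones, had a difference of 0.48 (SE 0.17, adjusted p = 0.365) and Tubb2a one of 0.16 (SE 0.07, adjusted p = 0.472); Spata13, an exchange factor that APC binds, and Tubb3 were the other members. Tubulin genes resemble each other in sequence, so reads may be split between them. Dpysl3 and Tubb3 are also in the list of immature neuron markers described below, and are counted there too.

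Immediate early genes are transcribed by neurons within minutes of activity. Of 30 tested, 16 were higher and 0 lower at an unadjusted p under 0.05, 28 had a positive difference, 9 separated the groups completely and 0 passed the adjusted threshold by limma; the median was 0.47. Several promoters of such genes are known to hold the cAMP response element, the site of CREB, whose 6-base core is TGACGT. On the opposite strand this core reads ACGTCA, and the full palindrome TGACGTCA holds both, overlapping. In RefSeq windows of 250 bases upstream of each start (GRCm38.p6), the core was present in 13 of 34 windows of the 22 list genes found there (38.2%), and in 6.47% of all 32851 windows. Windows of one gene can overlap, as do those of Egr2, and the search only describes the letters. For 4 genes of the list with 1 annotated start each and the core in that window, the last 200 bases before the start are shown 5′ to 3′ on the gene's strand, with the core in capitals.
Fos (chr12:85473690-85473889, plus strand): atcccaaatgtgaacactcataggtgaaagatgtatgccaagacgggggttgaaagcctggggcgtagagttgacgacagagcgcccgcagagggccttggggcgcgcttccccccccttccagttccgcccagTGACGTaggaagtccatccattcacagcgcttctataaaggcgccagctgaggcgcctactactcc
Egr4 (chr6:85513590-85513789, minus strand): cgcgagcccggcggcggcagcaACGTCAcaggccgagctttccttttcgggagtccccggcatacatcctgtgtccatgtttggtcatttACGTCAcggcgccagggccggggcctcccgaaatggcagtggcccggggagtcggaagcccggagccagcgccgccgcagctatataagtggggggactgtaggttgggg
Dusp1 (chr17:26508473-26508672, minus strand): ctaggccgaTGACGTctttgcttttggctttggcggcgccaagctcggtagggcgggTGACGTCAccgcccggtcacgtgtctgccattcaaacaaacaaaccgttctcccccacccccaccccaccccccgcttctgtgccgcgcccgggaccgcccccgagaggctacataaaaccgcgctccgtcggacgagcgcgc
Arl4d (chr11:101665341-101665540, plus strand): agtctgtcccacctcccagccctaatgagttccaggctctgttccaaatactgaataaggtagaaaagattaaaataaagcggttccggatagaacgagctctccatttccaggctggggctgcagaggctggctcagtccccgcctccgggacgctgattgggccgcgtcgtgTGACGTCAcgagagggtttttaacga
In Dusp1 and Arl4d the capitals include the full palindrome, and Egr4 and Dusp1 each hold the core at separate places. The single windows of Jun, Junb, Fosb, Nr4a2 and Gadd45g do not hold these letters.

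Fos, which encodes a subunit of the AP-1 transcription factor, was at 20.5, 22.6, 9.72 and 22.9 FPKM in APC cKOs and 7.86, 11.6, 7.33 and 11.9 FPKM in controls (difference 0.92, SE 0.39, adjusted p = 0.451). APC cKO replicates 1, 2 and 5 were above every control, and replicate 4 lay within the control range. Arc, a regulator of AMPA receptor trafficking, was at 76.3, 106, 60.1 and 64.3 FPKM against 39, 39.6, 33.1 and 45.1 FPKM (difference 0.94, SE 0.41, adjusted p = 0.464), and Egr2, a zinc finger transcription factor, was at 6.52, 6.5, 3.13 and 4.12 FPKM against 2.15, 1.9, 1.27 and 2.64 FPKM (difference 1.28, SE 0.47, adjusted p = 0.384). Both separated the groups, with APC cKO replicate 2 highest for Arc. Jun, the partner of Fos, was at 20.4, 14.8, 19.2 and 19.2 FPKM against 14.1, 14.2, 13.5 and 15 FPKM (difference 0.36, SE 0.08, adjusted p = 0.204). It had the smallest p of the list although APC cKO replicate 2 overlapped the controls. Nr4a2, an orphan nuclear receptor, was at 13.7, 11.4, 14.4 and 11.9 FPKM against 11, 7.43, 4.09 and 4.99 FPKM (difference 0.99, SE 0.28, adjusted p = 0.31), and Fosb was at 4.64, 4.25, 3.32 and 3.32 FPKM against 3.17, 1.94, 2.6 and 2.33 FPKM (difference 0.62, SE 0.20, adjusted p = 0.326). In both, control replicate 1 was the highest control.

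Of the 4 genes whose promoters are shown, Egr4 was at 12.6, 14.3, 9.67 and 11.1 FPKM in APC cKOs and 9.49, 9.06, 7.52 and 7.86 FPKM in controls (difference 0.48, SE 0.20, adjusted p = 0.451). Dusp1, a phosphatase that ends MAP kinase signalling, was at 18, 21.9, 15.3 and 20.6 FPKM against 10.6, 12.7, 10.7 and 14.7 FPKM (difference 0.64, SE 0.27, adjusted p = 0.44), and Arl4d, a small GTPase, was at 16.8, 18.6, 15.8 and 15.9 FPKM against 13, 13.4, 14 and 10.9 FPKM (difference 0.38, SE 0.14, adjusted p = 0.367). All 3 genes separated the groups. Junb had a difference of 0.75 and Gadd45g one of 0.52, with adjusted p of 0.371 and 0.31; Jund, Ier2, Btg2, Per1 and Cyr61 were the other members with an unadjusted p under 0.05. Bdnf and Homer1, each with transcripts of several starts, had the 2 negative differences. The count of 16 was 7 without control replicate 3, 9 without APC cKO replicate 2, 10 without APC cKO replicate 1, and 6 without both female samples; the median stayed between 0.38 and 0.58 in all alternatives. The part of handling before dissection in these values was not tested.

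**Figure D3:**
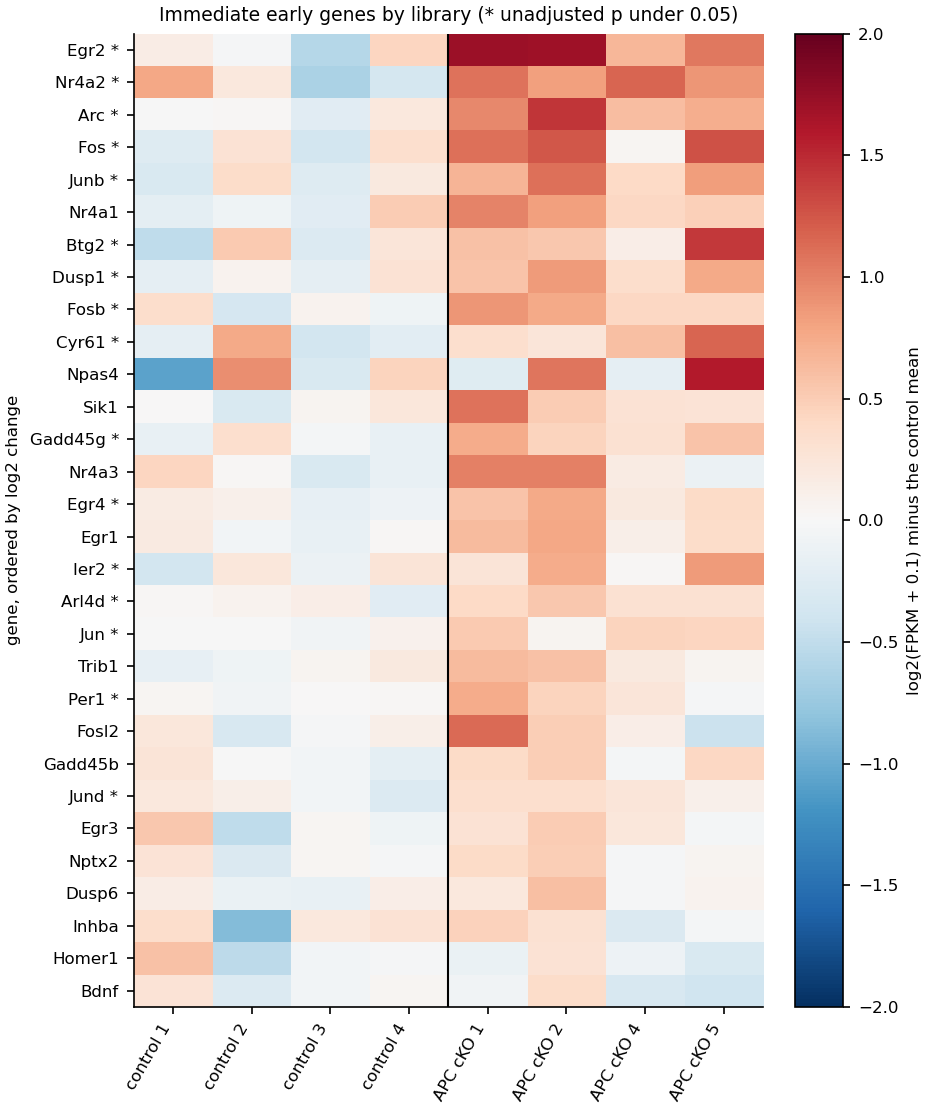
Each cell is log2(FPKM + 0.1) of an immediate early gene (rows, ordered by log2 change; * unadjusted p under 0.05) in a sample (columns), minus the mean of the 4 controls. Red prevails in all 4 APC cKO columns, most in replicates 1 and 2, and is paler in replicate 4, where Fos was at 9.72 FPKM.

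Parvalbumin interneurons are fast-spiking cells that inhibit pyramidal neurons near the soma, and are not the cells that the Cre driver targets. Of 15 markers, 8 were lower and 0 higher at an unadjusted p under 0.05, 6 separated the groups completely, 0 passed the adjusted threshold by limma and the median was -0.28. Pvalb, the calcium buffer that names the cells, was at 25.6, 54.4, 39.4 and 33.2 FPKM in APC cKOs and 68.2, 61.2, 63.1 and 66.6 FPKM in controls (difference -0.81, SE 0.19, adjusted p = 0.209). The highest APC cKO, replicate 2, was below the lowest control. Without that sample, the APC cKO nearest the controls, Pvalb passed the threshold by limma (adjusted p = 0.026), an outcome that the choice of sample favours. Pvalb passed in that 1 of 30 alternatives only. Its difference shrank to -0.62 without both female samples, and its adjusted p by limma was as high as 0.771 among the alternatives. Syt2, the fast calcium sensor of their terminals, was at 3.32, 6.43, 5.63 and 4.87 FPKM against 9.68, 7.67, 6.45 and 7.95 FPKM (difference -0.66, SE 0.22, adjusted p = 0.332), and Cplx1, complexin 1, which acts in transmitter release, was at 322, 331, 290.0 and 303 FPKM against 363, 375, 381 and 389 FPKM (difference -0.28, SE 0.06, adjusted p = 0.176). In Syt2 and Pvalb alike APC cKO replicate 1 was lowest. Kcnc1 and Kcnc2 encode the Kv3 channels of fast spiking; Kcnc2 was at 13.6, 19.8, 15 and 16.5 FPKM against 21.7, 22.6, 20.4 and 21.7 FPKM (difference -0.42, SE 0.13, adjusted p = 0.326) and Kcnc1 had a difference of -0.29 (SE 0.08, adjusted p = 0.31). Nek7, Btbd11 and Kcns3 were the other members. The summed level of the list was 455 to 546 FPKM in APC cKOs and 583 to 649 FPKM in controls. Cplx1 alone made up most of this sum in every sample of both groups, so the sum says little about the other markers. The count was 5 without APC cKO replicate 1 and 4 without both female samples.

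Potassium and HCN channel genes share Kcnc1, Kcnc2 and Kcns3 with the interneuron markers. Of 36 tested, 9 were lower and 1 higher at an unadjusted p under 0.05, 0 passed the adjusted threshold and the median was -0.14. Kcna2, a Kv1 channel of axons, was at 24.5, 31.1, 24.3 and 28.8 FPKM in APC cKOs and 34.5, 34.7, 32.8 and 38.8 FPKM in controls (difference -0.38, SE 0.15, adjusted p = 0.419). Kcnh4 had a difference of -0.33; Kcna1, Kcna6, Kcnv1 and Kcns3 were lower too at an unadjusted p under 0.05, and Kcna5 was the higher gene. The count of lower genes was 4 without APC cKO replicate 1, 5 without APC cKO replicate 4, control replicate 1 or control replicate 4, and 3 without the 2 samples with the most striatal markers.

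Every oligodendrocyte marker had a negative difference. Of 15, 7 were lower at an unadjusted p under 0.05 and 0 higher, none passed the adjusted threshold by limma (0 of 15), and the median was -0.26. Mbp, the myelin basic protein, was at 238, 284, 289 and 223 FPKM in APC cKOs and 316, 343, 281 and 401 FPKM in controls (difference -0.37, SE 0.12, adjusted p = 0.32). Ermn, a cytoskeletal protein of myelinating cells, was at 7.92, 11.4, 10.1 and 6.99 FPKM against 11.8, 13.4, 10.9 and 18.3 FPKM (difference -0.57, SE 0.17, adjusted p = 0.31). Control replicate 4 was highest for both, and control replicate 3 overlapped the APC cKOs. Mobp, a myelin protein, had a difference of -0.34 (SE 0.12, adjusted p = 0.367) and Gjc3, a connexin of these cells, one of -0.28 (SE 0.11, adjusted p = 0.419), and Mag and Cldn11 were also among the 7. The count was 3 without control replicate 2 or control replicate 4, 4 without APC cKO replicate 1 or APC cKO replicate 5, and 11 without control replicate 3. Of 12 precursor markers, 0 passed either threshold by limma.

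**Figure D4:**
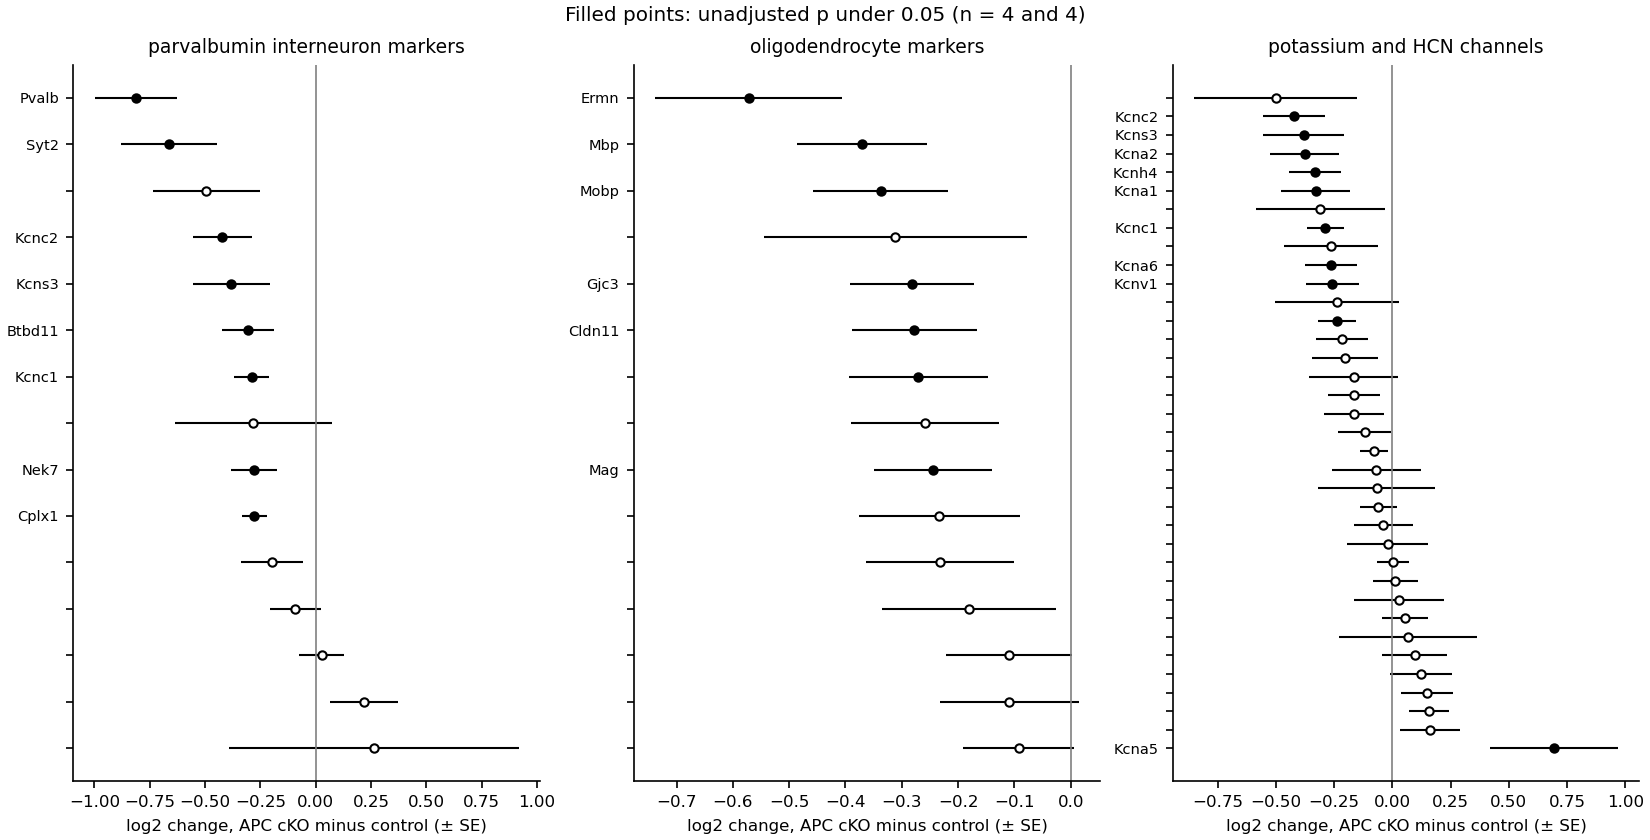
Log2 change in APC cKOs against controls (points, with the SE as bars; filled, unadjusted p under 0.05) for markers of parvalbumin interneurons, markers of oligodendrocytes and potassium and HCN channel genes. All 15 oligodendrocyte markers and 12 of 15 interneuron markers lie left of 0, with Pvalb at -0.81; genes named in the text are labelled.

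Other cells of the cortex showed smaller or mixed differences. Of 14 markers of excitatory neurons, 2 were lower at an unadjusted p under 0.05, Nrgn, a calmodulin-binding postsynaptic protein (difference -0.26, SE 0.09, adjusted p = 0.35), and Emx1, a cortical transcription factor (difference -0.30, SE 0.11, adjusted p = 0.383), and the median was -0.12. Without APC cKO replicate 2 the count was 5 and the median -0.20, and without APC cKO replicate 1 the median was -0.05. Of 11 upper layer markers 1 was higher and 1 lower, and of 14 deep layer markers 3 were higher and 1 lower, with Nxph4 above all controls and Deptor, an mTOR inhibitor, below them. Of 14 markers of other interneurons, 3 were lower: Vip was at 47.3, 41.9, 56.3 and 47.6 FPKM in APC cKOs and 47.4, 63.4, 62.3 and 60.4 FPKM in controls (difference -0.27, SE 0.09, adjusted p = 0.365), Npy had a difference of -0.30 (SE 0.11, adjusted p = 0.383) and Crhbp one of -0.35 (SE 0.12, adjusted p = 0.367). These encode 2 peptides and a binding protein of corticotropin-releasing hormone. Vip overlapped through control replicate 1, which was far below the other controls. Over 24 neuropeptide genes, 3 were higher and 4 lower and the median was 0.02; Nts, the peptide neurotensin, was at 7.75, 4.67, 16.3 and 7.46 FPKM against 11, 2.18, 0.795 and 1.14 FPKM (difference 1.84, SE 0.74, adjusted p = 0.424), with control replicate 1 among the APC cKOs. Npy, Vip and Crhbp are in both lists. The count of higher peptide genes was 0 without APC cKO replicate 4 and 1 without control replicate 3.

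Astrocyte markers gave 2 higher and 1 lower of 15. Gfap, the filament protein of reactive astrocytes, was at 132, 61.4, 69 and 68.5 FPKM in APC cKOs and 45.9, 46.3, 48.3 and 48.6 FPKM in controls (difference 0.73, SE 0.23, adjusted p = 0.328). All APC cKOs were above all controls, and the female replicate 1 was far above the other 3. S100b was lower (-0.22) and Gja1, a gap junction protein, higher (0.23) at an unadjusted p under 0.05. In the list of 18 complement and reactive glia genes, Gfap, C4b and Vim (0.49) were higher and Cd14, a coreceptor for lipopolysaccharide, lower (difference -0.47, SE 0.15, adjusted p = 0.326). Cd14 is also a neighbour of Apc on chromosome 18, at 2.5 Mb. Of 16 endothelial and pericyte genes, 4 were lower and 0 higher, with a median of -0.13: Rgs5, a pericyte gene, was at 9.13, 10.9, 9.27 and 10.4 FPKM against 13, 14.9, 13.4 and 12.5 FPKM (difference -0.43, SE 0.11, adjusted p = 0.31), and Ly6c1 (-0.41), Slco1a4, an organic anion transporter of the blood-brain barrier (-0.53), and Flt1, a VEGF receptor (-0.42), were the others. Of 13 genes of meninges and fibroblasts, 4 were higher, among them Slc6a13, a GABA and taurine transporter (difference 0.69, SE 0.19, adjusted p = 0.31), and Col1a1, type I collagen (difference 0.58, SE 0.19, adjusted p = 0.35). The count of 4 was 2 without APC cKO replicate 1 or control replicate 2, and 6 without APC cKO replicate 4 or control replicate 4. Microglial markers gave 1 lower of 15, blood genes 0 of 5 on either side, and none of these lists held a gene past the adjusted threshold (0 by limma).

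Of 41 glutamate receptor and postsynaptic scaffold genes, 1 was lower at an unadjusted p under 0.05 and 32 had a negative difference, with a median of -0.08. Without APC cKO replicate 2 the count of lower genes was 5, and without control replicate 1 or control replicate 4 it was 2. That gene was Gria4, an AMPA receptor subunit, at 36.9, 34, 32.9 and 36.1 FPKM in APC cKOs and 39.6, 43, 44.9 and 44.9 FPKM in controls (difference -0.30, SE 0.09, adjusted p = 0.31), with no overlap. Of 23 GABA synapse genes, 3 were lower and 0 higher at an unadjusted p under 0.05, with a median of -0.06, and the count of lower genes was 0 without control replicate 4. Axon guidance genes gave 10 higher and 5 lower of 63, with a median of 0.02 and 0 past the adjusted threshold by limma. Efnb1, a membrane ephrin, was at 6.13, 6.22, 6.1 and 5.76 FPKM against 4.87, 4.11, 4.87 and 3.7 FPKM (difference 0.46, SE 0.11, adjusted p = 0.213), and Ntng2, netrin-G2, had a difference of 0.35 (SE 0.11, adjusted p = 0.31). Among the lower ones, Sema7a, a membrane semaphorin, had a difference of -0.36 (SE 0.11, adjusted p = 0.312) and Robo3, a Slit receptor family member, one of -0.65 (SE 0.22, adjusted p = 0.347). The counts were 6 higher without control replicate 3, and 2 lower without APC cKO replicate 1 or APC cKO replicate 4.

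A list of 10 genes was picked by the study, on these samples, for links to autism, so the direction of its members here is not independent evidence. Of the 9 that passed the filter, 4 were higher and 1 lower at an unadjusted p under 0.05, 0 passed the adjusted threshold by limma, and the median was 0.35. The lower one was Pvalb. Kirrel3, a synaptic adhesion molecule, was at 19.6, 15.1, 13.9 and 15.9 FPKM in APC cKOs and 12.7, 13.2, 13.2 and 12.7 FPKM in controls (difference 0.30, SE 0.09, adjusted p = 0.312). C4b, complement component 4, was at 9.21, 3.27, 6.77 and 3.54 FPKM against 2.85, 2.97, 2.76 and 2.69 FPKM (difference 0.86, SE 0.30, adjusted p = 0.358). Both separated the groups, though for C4b APC cKO replicates 2 and 5 were only just above the controls. Nrp2, a semaphorin receptor, was at 8.29, 7.88, 9.11 and 8.14 FPKM against 7.83, 5.9, 5.79 and 6.71 FPKM (difference 0.35, SE 0.13, adjusted p = 0.386). Pax6, Dcx and Fam19a2 had differences of 0.60, 0.54 and 0.28 and Camk4 one of -0.28, with adjusted p of 0.563, 0.62, 0.586 and 0.552. Without APC cKO replicate 1 the differences were 0.26 for Pax6, 0.20 for Dcx and -0.18 for Camk4, and without both female samples they were 0.14, 0.01 and -0.13. Dcx was at 0.35 without control replicate 1, and Fam19a2 was at 0.15 without control replicate 3. Camk4 lies 1.29 Mb from Apc. Crhr2, a receptor of urocortins, was below the filter at 0.283, 0.285, 0.923 and 0.429 FPKM in APC cKOs and 0.124, 0.2, 0.256 and 0.0516 FPKM in controls. The count of higher genes was 2 without control replicate 3.

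Immature neurons and neuroblasts persist in the adult forebrain along the path to the olfactory bulb and in the dentate gyrus. Of 19 markers, 7 were higher and 0 lower at an unadjusted p under 0.05, 0 passed the adjusted threshold and the median was 0.51. Cd24a, a surface protein of neuroblasts, was at 21, 4.78, 15.1 and 11.4 FPKM in APC cKOs and 4.11, 4.36, 6.16 and 6.6 FPKM in controls (difference 1.13, SE 0.42, adjusted p = 0.384), and Igfbpl1, another neuroblast gene, was at 5.92, 0.642, 3.24 and 3.14 FPKM against 0.414, 0.603, 1.27 and 1.05 FPKM (difference 1.60, SE 0.62, adjusted p = 0.412). In both genes replicate 1 was the highest sample and replicate 2 lay at the control level. Sox11, a transcription factor of young neurons, had replicate 1 highest and replicate 2 below every control (3.22, 1.35, 3.19 and 2.52 FPKM against 1.83, 1.46, 1.56 and 1.82 FPKM, difference 0.53, SE 0.23, adjusted p = 0.461), and Dpysl3, Top2a, Prokr2 and Tubb3 were the other members. The count was 2 without APC cKO replicate 1, 4 without APC cKO replicate 5, control replicate 1 or control replicate 2, and 1 without both female samples. The median was 0.17 without APC cKO replicate 1 and 0.09 without both female samples. The sample with the highest olfactory bulb markers was also APC cKO replicate 1, and the part of these markers in the result was tested only as a covariate. With summed striatal and olfactory bulb markers as covariates 9 were higher, while the median fell from 0.51 to 0.33.

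A pair of further groups was noticed only after the values had been seen, so their counts describe and test nothing. One holds clock genes: of 23 clock and clock output genes, 6 were lower and 1, Per1, higher at an unadjusted p under 0.05. Besides Nr1d2 and Bhlhe41, Hlf, a PAR bZIP factor under clock control, was at 27.2, 33.7, 36.2 and 32.2 FPKM in APC cKOs and 40.5, 40.2, 41.2 and 42.1 FPKM in controls (difference -0.35, SE 0.09, adjusted p = 0.31), and its relative Dbp was at 23.8, 24, 31.5 and 26 FPKM against 30.8, 37.5, 35.2 and 32.9 FPKM (difference -0.38, SE 0.12, adjusted p = 0.312). Hlf separated the groups and Dbp did not, through APC cKO replicate 4. Per3, a period gene, had a difference of -0.24 (SE 0.10, adjusted p = 0.42), and Gm129 was the other lower gene. The time of day of dissection is not given in the sources used here. The other holds mitosis genes, of which 13 of 27 passed the filter on low values, some of them through APC cKOs alone. At an unadjusted p under 0.05, 8 were higher and 0 lower. When a mean of 2 FPKM was required 1 was higher, but that filter leaves out members such as Top2a, Pbk and Bub1b. Top2a, a topoisomerase of dividing cells, was at 1.1, 0.439, 1.35 and 1.1 FPKM against 0.312, 0.366, 0.297 and 0.327 FPKM (difference 1.28, SE 0.31, adjusted p = 0.261), Pbk, a mitotic kinase, at 1.44, 0.739, 1.38 and 1.54 FPKM against 0.402, 0.239, 0.486 and 0.044 FPKM (difference 1.94, SE 0.43, adjusted p = 0.204), and Bub1b, a spindle checkpoint kinase, at 0.937, 0.653, 0.855 and 1.66 FPKM against 0.167, 0.0283, 0.16 and 0.0364 FPKM (difference 2.52, SE 0.46, adjusted p = 0.107). All 3 separated the groups at levels mostly near or below 1 FPKM. Hmgb2 had a difference of 0.80.

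Markers of neighbouring tissue differed between samples of one group. The summed level of 18 striatal projection neuron markers was 219, 393, 876 and 338 FPKM in APC cKOs and 654, 307, 189 and 188 FPKM in controls. APC cKO replicate 4 and control replicate 1 stood highest, so the groups overlapped. Of 17 tested, 0 were higher or lower by limma at either threshold, with a median of 0.61; without both female samples 15 were higher at an unadjusted p under 0.05, and without control replicate 1 alone 9 were. The opioid precursor Penk was at 73.7, 92.8, 229 and 81.8 FPKM against 145, 67, 48.9 and 43.5 FPKM (difference 0.66, SE 0.47, adjusted p = 0.659) and the retinoid receptor Rxrg at 5.02, 6.36, 13.6 and 7.25 FPKM against 10.4, 4.82, 3.09 and 3.95 FPKM (difference 0.58, SE 0.37, adjusted p = 0.616), and the transcription factor genes Isl1 and Six3 were at 0 in at least 1 of the 8 samples. The sum of 11 olfactory bulb markers was 700.1, 266, 288 and 317 FPKM in APC cKOs and 243, 249.95, 462 and 407 FPKM in controls, with APC cKO replicate 1 highest and no marker at 0. The sum of 15 ependymal and choroid plexus markers was 38.2, 11.8, 66.9 and 26.2 FPKM in APC cKOs against 16.2, 17.4, 13.2 and 13.4 FPKM in controls; Rsph1, a protein of motile cilia (difference 0.76, SE 0.27, adjusted p = 0.371), and Kl, the ageing-related gene klotho, were higher among 12 tested at an unadjusted p under 0.05 and the median was 1.31. Replicate 2 was the lowest of the 8 samples, without it 8 were higher, and without APC cKO replicate 4 the count was 0. With summed striatal and olfactory bulb markers as covariates, 6 genes were called, 17 immediate early genes were higher and 8 interneuron markers lower. The median of the immediate early genes then went from 0.47 to 0.55, and that of the interneuron markers shrank from -0.28 to -0.22. The same covariates took the median of the channel genes from -0.14 to -0.05, of the ependymal markers from 1.31 to 0.62, of the glutamate receptor genes from -0.08 to -0.02 and of the GABA synapse genes from -0.06 to -0.01, and the difference of Kcna2 from -0.38 to -0.20.

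**Figure D5:**
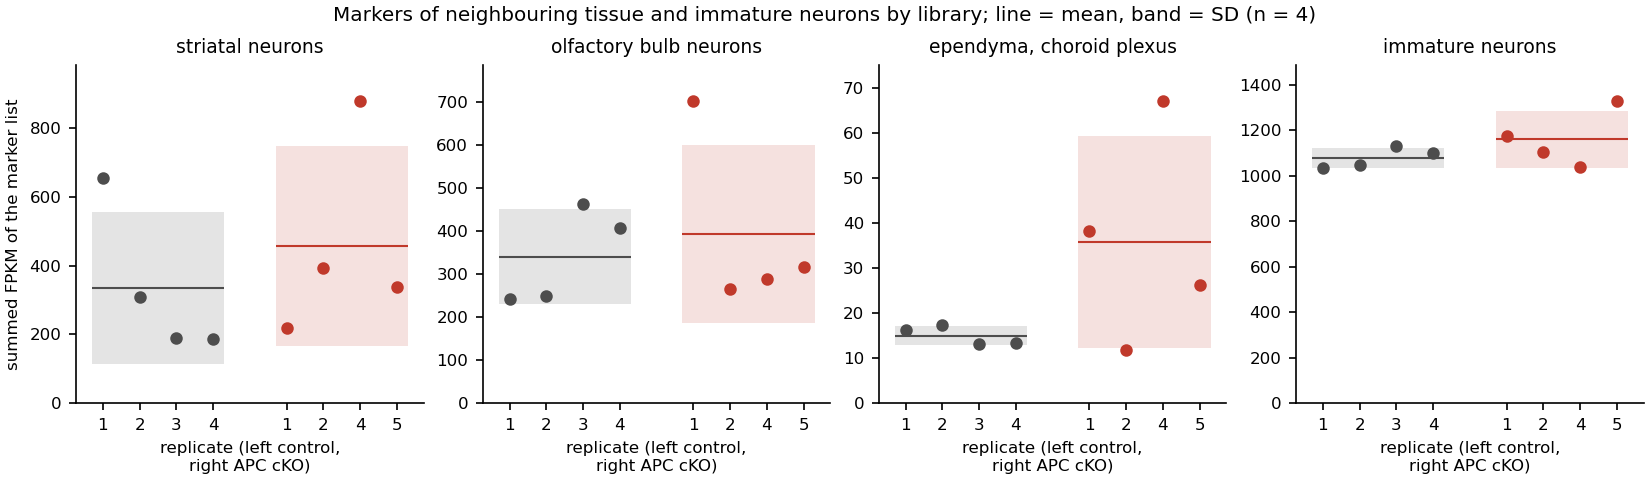
Summed FPKM of 4 marker lists by sample (grey, controls; red, APC cKOs; lines, mean; bands, SD over 4 samples). Striatal markers were highest in APC cKO replicate 4 (876 FPKM) and control replicate 1 (654 FPKM), and olfactory bulb markers in APC cKO replicate 1 (700.1 FPKM).

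Control replicate 1 stood apart from the other controls in a set of genes chosen here after their values were seen. Cwc22, a splicing factor gene at chr2:77881159-77946375, was at 5.85, 6.65, 6.82 and 6.71 FPKM in APC cKOs and 6.2, 75.3, 80.1 and 119 FPKM in controls. Control replicate 1 lay among the APC cKOs, and the other 3 controls were far above. Tuba1c, an α-tubulin gene on chromosome 15, was at 0.286, 0.395, 0.47 and 0.247 FPKM against 0.42, 2.8, 2.83 and 3.3 FPKM and divided in the same way. Protocadherin β genes, adhesion molecules in a cluster of similar genes on chromosome 18 whose reads may be split between copies, were in part of this kind. Of 21 tested, 6 were higher and 2 lower in APC cKOs at an unadjusted p under 0.05, 0 passed the adjusted threshold by limma, and the median was 0.05. Of those, Pcdhb6, 3.11 Mb from Apc, was at 3.3, 3.8, 4.28 and 2.78 FPKM against 3.78, 0.581, 0.775 and 0.807 FPKM, and Pcdhb9, 3.18 Mb from Apc, at 4.57, 3.09, 2.96 and 2.57 FPKM against 3.98, 7.8, 8.21 and 8.75 FPKM. Pcdhb6 was high and Pcdhb9 low in control replicate 1 and in all APC cKOs. APC/β-cat cKOs were at 1.32 to 2.71 FPKM for Pcdhb6 and 5.51 to 8.3 FPKM for Cwc22, and β-cat cOEs at 0.62 to 1.18 FPKM and 58.5 to 158 FPKM. With all samples the differences were -2.81 (SE 0.65, adjusted p = 0.213) for Cwc22, -2.16 (SE 0.44, adjusted p = 0.152) for Tuba1c, 1.58 (SE 0.42, adjusted p = 0.31) for Pcdhb6 and -1.07 (SE 0.24, adjusted p = 0.204) for Pcdhb9. Without control replicate 1 all 4 passed the adjusted threshold, but they were chosen for the place of that sample, so this tests nothing. The 43 genes then called, most of them called only because that sample was left out, held 6 protocadherins and all 6 genes called with every sample.

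Direct tests against the other lines asked where APC cKOs differ from mice with stabilised β-catenin and from conditional knockouts of both Apc and Ctnnb1. Against β-cat cOEs, 6 genes (0.0429%) differed at an adjusted p under 0.05, with 508 (3.63%) higher and 550 (3.93%) lower at an unadjusted p under 0.05. The difference, APC cKO minus β-cat cOE, was -1.97 (SE 0.20, adjusted p = 0.000426) for Apc and -1.80 (SE 0.25, adjusted p = 0.0108) for Gm6277, and Cd14, at 1.01, 1.35, 1.08 and 0.861 FPKM in APC cKOs and 2.44, 2.26, 2.16 and 1.99 FPKM in β-cat cOEs, differed by -0.99 (SE 0.15, adjusted p = 0.0172). Cd14 lies on chromosome 18, 2.5 Mb from Apc. Cwc22, Tuba1c and Fut10 were the other 3. Of the 30 immediate early genes, 10 were higher and 0 lower in APC cKOs at an unadjusted p under 0.05, with a median of 0.41, and of the 15 interneuron markers 0 were, with a median of -0.12; Arc was at 18.6, 22, 62.3 and 85.9 FPKM and Pvalb at 42.7, 37.1, 61.7 and 41.1 FPKM in β-cat cOEs. Of the 15 oligodendrocyte markers 8 were lower, with a median of -0.27.

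Against APC/β-cat cKOs, 30 genes (0.215%) differed at an adjusted p under 0.05, with 580 (4.15%) higher and 857 (6.13%) lower at an unadjusted p under 0.05. Among the genes named here, the difference, APC cKO minus APC/β-cat cKO, was 0.995 (SE 0.18, adjusted p = 0.0396) for Sfrp1, 0.55 (SE 0.09, adjusted p = 0.0134) for Bmpr1b and 2.07 (SE 0.33, adjusted p = 0.0138) for Mns1. Sfrp1 was at 6.82, 6.14, 4.63 and 5.49 FPKM in APC/β-cat cKOs, below every APC cKO. It was -0.50 (SE 0.08, adjusted p = 0.0136) for Bhlhe41 and -0.69 (SE 0.12, adjusted p = 0.0187) for Dbp. Axin2 was at 5.02, 5.25, 5.7 and 4.52 FPKM in APC/β-cat cKOs and differed by 0.47 (SE 0.11, adjusted p = 0.129), and Wif1 was at 0.565, 0.94, 0.522 and 0.7 FPKM and differed by 2.08 (SE 0.49, adjusted p = 0.112). Every APC cKO was above every APC/β-cat cKO for both, but neither passed the adjusted threshold. Of the 27 Wnt feedback and target genes, 5 were higher and 1 lower, with a median of 0.13. Oligodendrocyte markers gave 13 of 15 lower, with a median of -0.44, and interneuron markers 4 of 15 lower, with a median of -0.15. Of the 30 immediate early genes, 1 was higher, with a median of 0.20. These direct comparisons share the APC cKO samples with the comparison with controls, and the lists were not tested as lists.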

How the data were processed

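Polyadenylated RNA of the prefrontal cortex of 16 mice, 4 per genotype, was sequenced from stranded mRNA libraries. The submitters' processing notes name bcl2fastq, TopHat2 2.0.10, Cuffdiff 2.1.1 and the mm10 genome, and the authors deposited 1 table of log2 values per gene and sample. Its 16 value columns, all used, were taken to hold log2(FPKM + 1), from which FPKM were recovered. The base was checked against the values, and the offset of 1 was inferred without a test of other offsets. FPKM do not keep the number of reads, so depth is unknown and no counting interval or count test could be given.

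Differences were tested on log2(FPKM + 0.1), in genes averaging 0.5 FPKM or more over the 16 samples, by limma 3.58.1 (R 4.3.3) with 4 group means, a trended variance prior, 12 residual degrees of freedom and two-sided p adjusted by Benjamini-Hochberg over all 13978 genes. Plots were drawn with matplotlib 3.10.9 and tables were handled with numpy 2.4.6 and pandas 2.3.3 under Python 3.11.15. The fitting code was tested on simulated data. Positions were taken from GENCODE vM21 (GRCm38), and promoter windows from RefSeq.

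Genes were named by a rule: Apc, Ctnnb1, genes called, those the study names, the 12 higher and 12 lower with the smallest p among genes at 1 FPKM or more whose groups do not overlap, and up to 4 leading members of each gene list, with defining members. The members and lists were chosen with earlier results of these data known. The clock, mitosis and β protocadherin lists, and members named beyond the 4 leading ones of a list, were chosen after their values were seen. Values of some members of these lists are not reported here. Replicate numbers are those of the titles. Alternatives were another added constant, other filters and scalings, other variance models, sex, a replicate block, and leaving out samples.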

Additional observations from a re-analysis of the deposited data

Results flagged for a closer look

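In the 234 sets of 4 samples examined (each named gene in APC cKOs and in controls), 1 sample stood away from the other 3 in 19, by a gap to its nearest neighbour that was a larger share of the set's range than Dixon's critical value at 95% allows. Chance flags about 1 in 20 such sets, which gives 11.7. The 2 numbers cannot be set against each other, since Cwc22, Tuba1c and the Pcdhb genes were named for the place of control replicate 1. In controls, the sample set apart was replicate 1 for 6330527O06Rik (a gap of 0.911 of the range), Notum (0.908), Vip (0.835), Ly6c1 (0.857), Pcdhb2 (0.944), Pcdhb3 (0.847), Pcdhb6 (0.835), Pcdhb9 (0.853), Cwc22 (0.845) and Tuba1c (0.915), and replicate 4 for Bmpr1b (0.874), Pnmal2 (0.872) and Tuba1a (0.914). In APC cKOs it was replicate 5 for Sgpp2 (0.916) and Pcdhb7 (0.897), replicate 4 for Fos (0.87), replicate 1 for Gfap (0.846) and Cwc22 (0.832), and replicate 2 for Pbk (0.845). The range of Cwc22 in APC cKOs was only 5.85 to 6.82 FPKM.

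Named genes whose level differed between APC cKOs and another line with Cre at an adjusted p under 0.05 by limma were the following. The log2 difference, APC cKO minus β-cat cOE, was -1.97 for Apc, -0.991 for Cd14, -3.95 for Cwc22, -1.80 for Gm6277 and -2.99 for Tuba1c. The log2 difference, APC cKO minus APC/β-cat cKO, was -0.502 for Bhlhe41, 0.552 for Bmpr1b, -0.691 for Dbp, 2.07 for Mns1 and 0.995 for Sfrp1. Every APC cKO lay outside the range of the other line for each of these 10 genes.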

How the results depend on the processing

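Apc and Fam131b kept their call in every alternative run. Gm10635 lost it in 11 of 29 alternatives, Zyx in 6, Gm6277 in 3 and Casp2 in 2, and of all differences of named genes 0 reversed. The number of genes called against controls, β-cat cOEs and APC/β-cat cKOs, 6, 6 and 30 in the analysis reported, was 2, 10 and 6 when only the samples of the groups compared entered the fit. Against controls it was 13 with sample weights. Against β-cat cOEs it was 1 with a mean of at least 2 FPKM. Against APC/β-cat cKOs it was 16 without the variance trend, 58 with sample weights and 14 with sex as a covariate. Leaving out 1 sample gave 3 to 43, 1 to 23 and 10 to 32. The cause of these moves was not tested.

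With the title number as a replicate block the counts were 3, 1 and 15. Deviations of same-numbered APC cKOs and controls correlated at -0.0801, -0.000909 and -0.177. Such correlations over all tested genes cannot show whether samples shared a litter or day, which the labels do not give. Alternatives chosen after seeing the data gave 26, 14 and 17 without both female samples, 32, 18 and 21 without the 2 samples with the most striatal markers, 6, 3 and 49 with striatal and olfactory bulb markers as covariates, and 7, 7 and 31 with another numbering of the sample sets as a block.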
